A study of Mus musculus with 5 samples.

Results

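Wnt ligands, their receptors, secreted antagonists, intracellular mediators and feedback targets were examined in ID8 cells. This mouse line derives from ovarian surface epithelium and grows as peritoneal tumours with ascites when injected into mice. The set was a list of 38 genes, each represented by the probe set annotated to that gene alone with the highest mean signal over all arrays. Of these, 37 were measured, out of 12394 genes on the array, and Tcf7 was not analysed here because no probe set was annotated to it alone. The members were 9 ligands, 8 Frizzled receptors, 2 co-receptors, 6 secreted antagonists, 8 intracellular mediators and 4 measured feedback targets.

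Total RNA was hybridised to an Affymetrix mouse array from parental ID8 cells in DMEM with 10% fetal bovine serum (FBS, labelled id8; 3 arrays, replicates 1, 2 and 3) and from ID8 cells in DMEM with 10% ascites fluid of ID8-bearing mice (labelled ASid8; 2 arrays, replicates 2 and 3). Ascites culture lasted 7 days per the series design, which leaves unclear the length of the FBS culture and any serum in the ascites medium. Both groups are a single cell line, and nothing in the labels says that the replicates were separate cultures, so p values reflect array-to-array spread that may be technical. The study asked how ascites changes ovarian cancer cells and whether it favours stem-like cells, and Wnt signalling is among the pathways that maintain stem cells in several epithelia.

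Wnt proteins are secreted lipid-modified ligands that bind Frizzled receptors. With the co-receptors LRP5 or LRP6, ligand binding stops a cytoplasmic destruction complex of APC, AXIN and GSK3 from marking beta-catenin for degradation, and beta-catenin then acts with TCF and LEF factors on target genes, some of which feed back on the pathway. Other Wnt ligands, such as WNT5A, mainly act through branches that do not use beta-catenin. In the ovary, Wnt4 is known for its part in gonad development, and the ovarian surface epithelium holds Wnt-responsive cells.

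The arrays did not lie equally close to each other. FBS replicates 1 and 2 differed by an SD of 0.12 over genes, the SD between FBS replicate 3 and each of them was 0.43, and the ascites arrays differed by 0.24. The results that rest on FBS replicate 3 are therefore given with and without it. Of the 10 measured markers of ovarian surface and mesothelial cells, 8 lay above the upper quartile (5.98) of 27 genes of unrelated tissues, which served as a reference for dim signal, while the epithelial adhesion genes Cdh1 and Epcam lay below it. Of the immune markers, 3 of 12 for macrophages (among them Cd14 at 6.60 to 7.74), 2 of 8 for lymphocytes and 1 of 5 for neutrophils lay above it, 0 were called, and Ptprc, the pan-leukocyte marker, was at 3.34 to 3.51 on all 5 arrays.

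After culture in ascites, ID8 cells had lower signals of the ligand Wnt6, of the receptors Fzd2 and Fzd4, and of the receptor-removing ubiquitin ligase Rnf43, the last within the dim range on all arrays, and 0 members were called higher. Of the 37 members, 4 fell (10.8%) at an adjusted p below 0.05, where 2.59% of all genes did, and 0 rose, where 2.69% of all genes did. The list was chosen with earlier results of these data known, so these shares and those below are not a test of the set. At an unadjusted p below 0.05, 10 members were lower and 1 was higher, where 12.5% and 11.7% of all genes were. All adjusted p values are from limma's moderated test over all 12394 genes with Benjamini-Hochberg adjustment, and changes are ascites minus FBS on the log2 scale. Each of the 4 calls was lost when any 1 of FBS replicate 1, FBS replicate 2, ascites replicate 2 or ascites replicate 3 was left out, as were all calls among the 12394 genes, whereas 10 members were lower and 1 higher without FBS replicate 3.

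Upstream sequence of the members that fell is shown because they moved in the same direction and because TCF and LEF factors bind a short core motif. RefSeq windows (GRCm38.p6) were found for 24 of the 37 members, among them Wnt6, Fzd4 and Rnf43 but not Fzd2. The 250 bases before the start site are printed 5′ to 3′ on the gene's strand, with the GC box GGGCGG or its reverse complement CCGCCC in capitals. The Wnt6 window precedes a start site that lies inside the longer RefSeq gene span, and Rnf43 has 2 start sites, of which the one at the gene's start is shown.
Wnt6 (chr1:74771642-74771891, + strand): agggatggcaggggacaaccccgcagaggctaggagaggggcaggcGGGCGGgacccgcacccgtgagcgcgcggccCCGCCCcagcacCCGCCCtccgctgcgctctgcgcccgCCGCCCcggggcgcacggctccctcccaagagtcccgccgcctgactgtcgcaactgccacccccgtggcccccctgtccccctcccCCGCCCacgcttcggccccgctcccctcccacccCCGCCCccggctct
Fzd4 (chr7:89404116-89404365, + strand): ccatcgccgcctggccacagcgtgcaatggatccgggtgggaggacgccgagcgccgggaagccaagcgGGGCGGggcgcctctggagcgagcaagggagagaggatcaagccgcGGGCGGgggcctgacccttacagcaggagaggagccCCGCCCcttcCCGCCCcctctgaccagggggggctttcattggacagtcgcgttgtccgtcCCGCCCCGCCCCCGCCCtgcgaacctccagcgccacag
Rnf43 (chr11:87662837-87663086, + strand): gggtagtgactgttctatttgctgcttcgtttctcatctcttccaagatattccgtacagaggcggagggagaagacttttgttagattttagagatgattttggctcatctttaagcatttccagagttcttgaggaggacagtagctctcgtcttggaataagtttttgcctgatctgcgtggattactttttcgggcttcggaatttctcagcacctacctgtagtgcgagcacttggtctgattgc

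The Wnt6 window held 6 matches to the GC box and the Fzd4 window 7, overlapping matches included, whereas the Rnf43 window held 0. Their GC content was 79.6%, 72.8% and 44.4%, where the median over all windows was 52.4%. Of all 32851 RefSeq windows of this length, 32.7% held a GC box on either strand, and among the members it was in 21 of 33 windows, belonging to 17 of 24 members, of which Wnt6 and Fzd4 passed the threshold. The TCF and LEF core CTTTGA, or its reverse complement TCAAAG, was in none of these 3 windows, and 13.8% of all windows held it. Among the members, 6 of 24 held the core in at least 1 window, namely Dkk1, Fzd1, Gsk3b, Lef1, Wnt11 and Wnt5b. Counted by window, as the share of all windows is, these were 6 of 33. The Wnt11 window, from the upstream one of its 2 listed start sites, is printed as an example with the core in capitals.
Wnt11 (chr7:98834862-98835111, + strand): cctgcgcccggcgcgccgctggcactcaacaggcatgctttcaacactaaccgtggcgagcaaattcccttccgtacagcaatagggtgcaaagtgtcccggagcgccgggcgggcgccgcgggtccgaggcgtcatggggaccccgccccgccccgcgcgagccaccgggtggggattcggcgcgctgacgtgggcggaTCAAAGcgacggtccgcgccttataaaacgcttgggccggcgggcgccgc

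**Figure D1:**
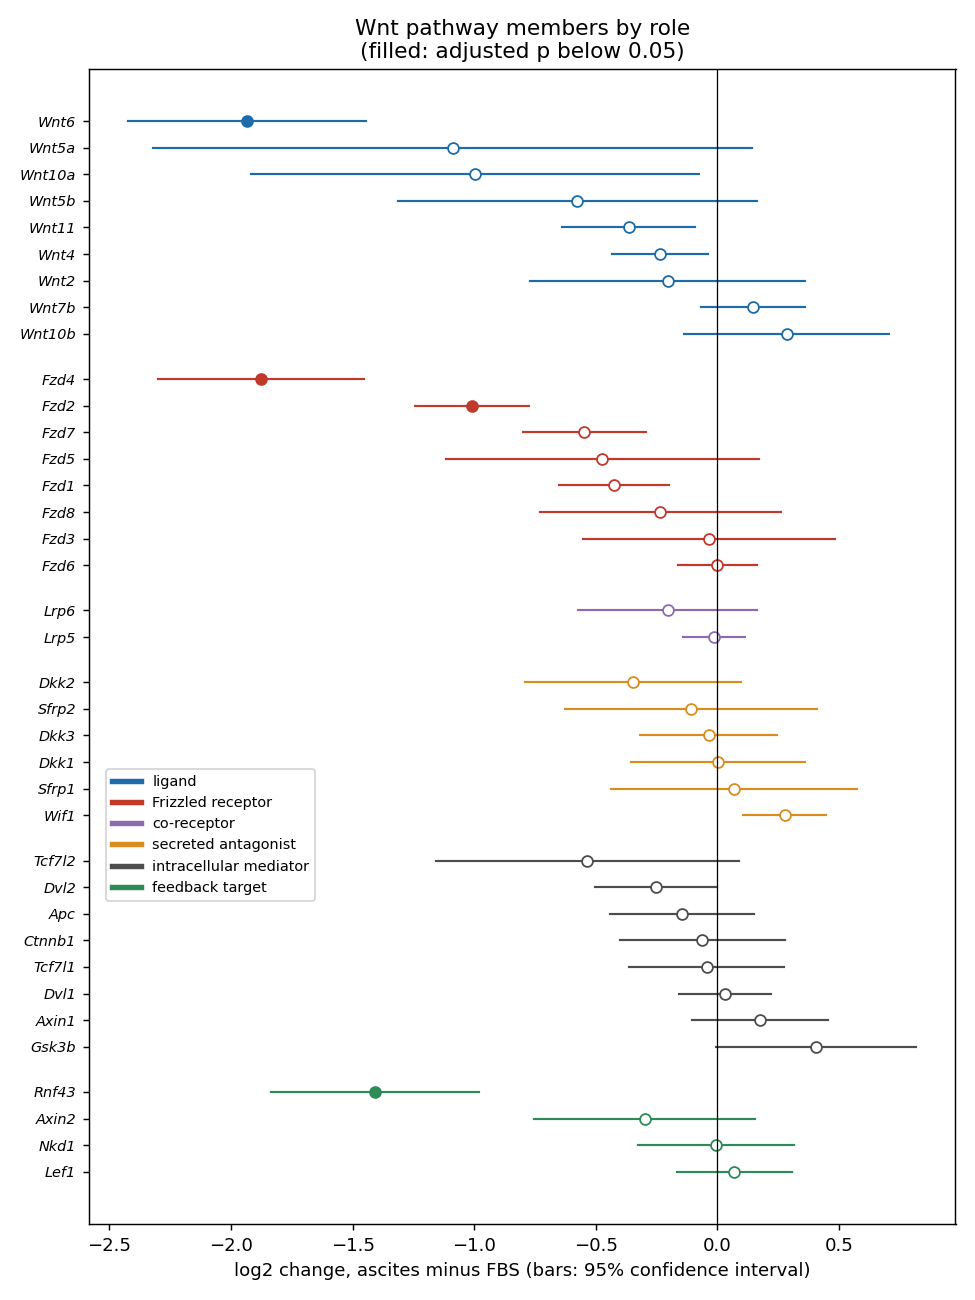
Log2 change between ascites and FBS (x axis, ascites minus FBS) of each of the 37 measured members, grouped and coloured by role, with limma's 95% confidence interval as a bar and filled points for an adjusted p below 0.05. Most ligands and Frizzled receptors lie left of 0, with Wnt6 at -1.93 and Fzd4 at -1.88, while the antagonists and mediators lie between -0.54 and 0.41.

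Among the roles, the ligands and the Frizzled receptors had the lowest median changes. The median change was -0.37 over the 9 ligands, of which 7 were lower in ascites, and -0.45 over the 8 Frizzled receptors, of which 7 were lower and Fzd6 was at 0.00. It was -0.11 over the co-receptors, -0.02 over the 6 secreted antagonists (3 lower and 3 higher), -0.05 over the 8 intracellular mediators (5 lower and 3 higher) and -0.15 over the 4 feedback targets. The median over all 12394 genes was 0.00, and 49.5% of all genes were lower in ascites against 73.0% of the members. The roles also differed in signal. In both groups 5 of the 6 antagonists, 3 of the 4 feedback targets and 3 of the 8 Frizzled receptors were dim, against 0 of the ligands, co-receptors and mediators. These medians describe the lists, and no difference between roles was tested.

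Every ascites array lay below every FBS array for 15 of the 37 members (40.5%, where 19.4% of all genes did so), and above for 3 members (8.11%, where 18.6% of all genes did so). Of the 15, 6 were ligands, 5 were Frizzled receptors, 2 were mediators, 1 was an antagonist and 1 a feedback target. The 3 members with the opposite order were the ligand Wnt7b, the antagonist Wif1 and the kinase gene Gsk3b. A log2 change of at least 1 in size was seen in 5 members, which were Wnt5a, Wnt6, Fzd2, Fzd4 and Rnf43, all downward, where 3.37% of all genes were lower by as much. Of these, Wnt5a did not pass the threshold (adjusted p = 0.251), and Rnf43 was dim in both groups. For 28 members the 95% confidence interval lay wholly within a 2-fold change in either direction.

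Wnt6, a ligand that signals mainly through beta-catenin, read 11.10, 11.21 and 11.57 on the FBS arrays and 9.50 and 9.22 on the ascites arrays. The groups did not overlap, and FBS replicate 3 was the highest of the 5 arrays. Wnt6 was 3.82-fold lower in ascites (log2 change -1.93, SE 0.18, 95% confidence interval -2.42 to -1.44, adjusted p = 0.0218). Its change lay between -2.07 and -1.79 when any 1 of the other 4 arrays was left out, with adjusted p values of 0.104 to 0.156.

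Wnt10a, another ligand that acts through beta-catenin, lies next to Wnt6 with no other protein-coding gene between them in RefSeq. Its signal was 11.67, 11.61 and 12.53 in FBS and 11.12 and 10.76 in ascites. Here too the groups did not overlap and FBS replicate 3 was the highest, but the change of -0.997 (SE 0.34, 95% confidence interval -1.92 to -0.08) did not pass the threshold (adjusted p = 0.180). Another pair of neighbours, Wnt10b and Wnt1, had changes of 0.29 and 0.01, and neither passed.

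Wnt5a, a ligand of the branches that do not use beta-catenin, read 10.82 and 10.79 in FBS replicates 1 and 2, 9.57 in FBS replicate 3, and 9.47 and 9.14 in ascites. FBS replicate 3 thus lay next to the ascites arrays rather than next to the other FBS arrays. The change was -1.09 (SE 0.46, adjusted p = 0.251) with all arrays and -1.50 (adjusted p = 0.0166) without FBS replicate 3. A second Wnt5a probe set gave the same order, with 9.44, 9.36 and 8.23 in FBS against 8.10 and 7.70 in ascites.

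Wnt5b, its close paralog, showed the same arrangement. It read 6.60 and 6.49 in FBS replicates 1 and 2, 5.80 in FBS replicate 3, and 5.75 and 5.69 in ascites. Its change was -0.58 (adjusted p = 0.306) with all arrays and -0.83 (adjusted p = 0.0127) without FBS replicate 3, and the lower values were within the dim range. Its second probe set changed by -0.62.

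Wnt11, a ligand best known for control of cell movement in the embryo, was 8.77, 8.65 and 8.50 in FBS and 8.33 and 8.22 in ascites. The groups did not overlap, and the change was -0.37 (SE 0.10, adjusted p = 0.124). It passed without FBS replicate 3 (-0.44, adjusted p = 0.0437). Wnt4, which takes part in female gonad development, was at 8.99, 8.90 and 8.95 in FBS against 8.79 and 8.63 in ascites, a change of -0.24 (adjusted p = 0.150).

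The remaining ligands showed smaller differences. Wnt2 changed by -0.21, Wnt7b by 0.15 and Wnt10b by 0.29, with adjusted p values of 0.611, 0.371 and 0.373. The 95% confidence intervals were -0.77 to 0.36 for Wnt2, -0.07 to 0.36 for Wnt7b and -0.14 to 0.71 for Wnt10b, so that each excluded a 2-fold change. Wnt7b read 7.92 on each of the 3 FBS arrays and 7.96 and 8.17 in ascites.

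**Figure D2:**
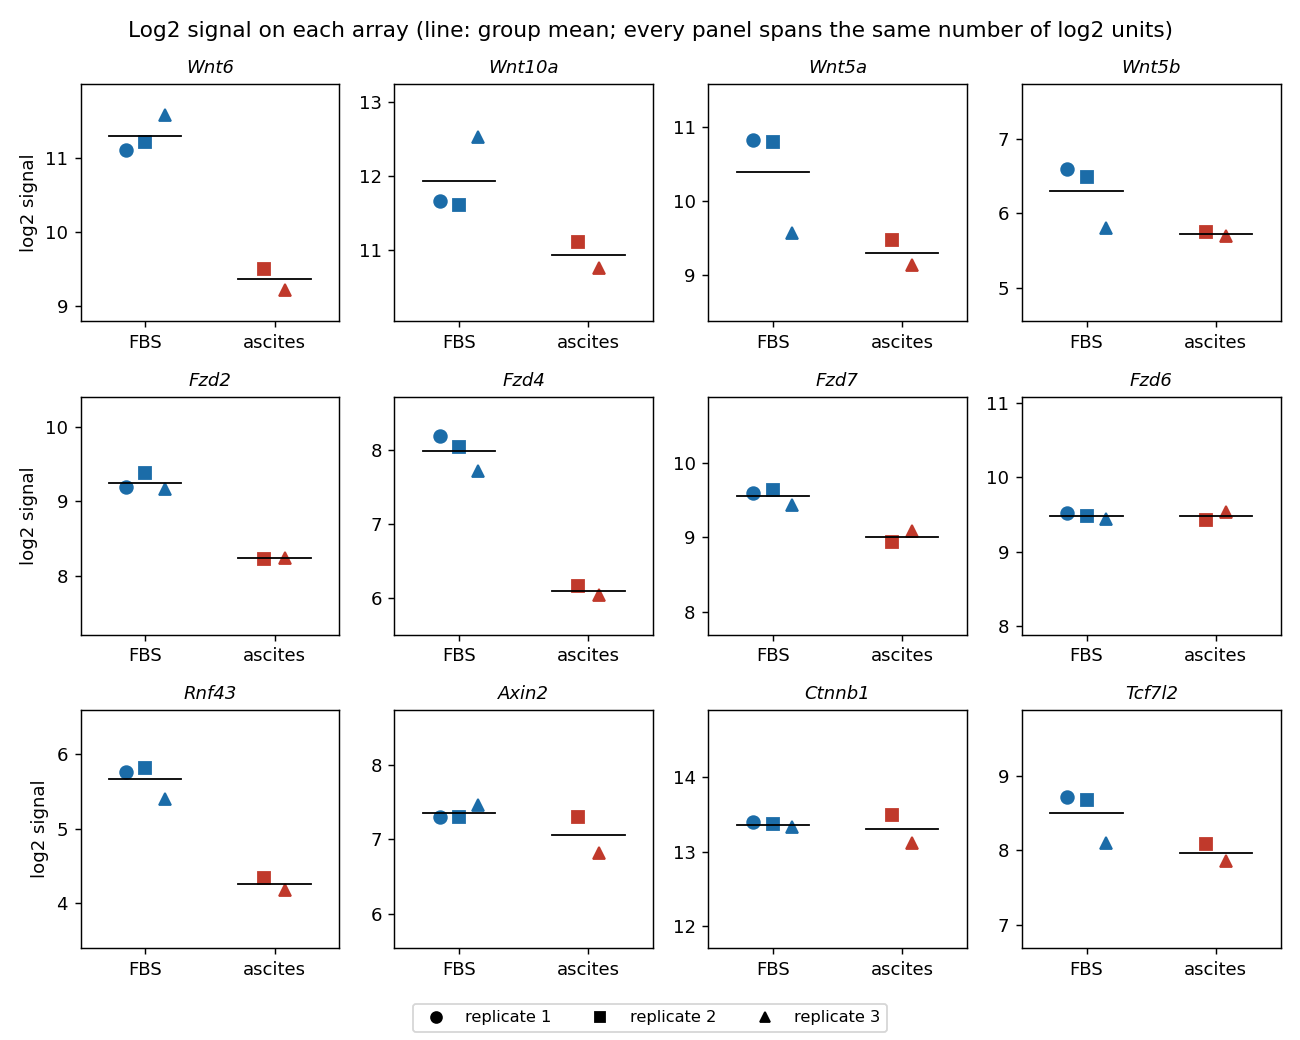
Log2 signal (y axis) on each FBS array (blue) and ascites array (red) for 12 members, with the group mean as a line, marker shapes for the replicate number, and the same span of log2 units in every panel. Wnt6, Fzd2, Fzd4 and Rnf43, which passed, are separated with all arrays, as are Wnt10a, Wnt5a, Wnt5b, Fzd7 and Tcf7l2, which did not pass. FBS replicate 3 (triangle) lies next to the ascites arrays for Wnt5a, Wnt5b and Tcf7l2. Fzd6, Axin2 and Ctnnb1 overlap between the groups.

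Fzd4, a Frizzled receptor that also serves the non-Wnt ligand norrin, read 8.18, 8.03 and 7.72 in FBS and 6.16 and 6.04 in ascites. All FBS arrays lay more than 1 log2 unit above both ascites arrays. Fzd4 was 3.67-fold lower in ascites (log2 change -1.88, SE 0.16, 95% confidence interval -2.30 to -1.45, adjusted p = 0.0191). Its ascites mean of 6.10 lay little above the upper quartile of the unrelated-tissue genes (5.98), so the fold is uncertain. A second Fzd4 probe set stayed at 3.89 to 3.93 on all 5 arrays, within the dim range, and averaging it in gave a change of -0.95.

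Fzd2, a receptor used in both beta-catenin and other branches, read 9.19, 9.38 and 9.16 in FBS and 8.23 and 8.24 in ascites. It was 2.01-fold lower (log2 change -1.01, SE 0.09, 95% confidence interval -1.24 to -0.77, adjusted p = 0.0196). The groups did not overlap on any of its 3 probe sets, and the other probe sets changed by -1.06 and -0.68. The probe sets come from the same RNA and are not separate replicates. Without any 1 of FBS replicate 1, FBS replicate 2, ascites replicate 2 and ascites replicate 3, the change was -1.04 to -0.94 with adjusted p values of 0.106 to 0.140. The corresponding ranges of adjusted p were 0.105 to 0.149 for Fzd4 and 0.119 to 0.166 for Rnf43.

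Fzd7, a receptor often expressed by epithelial stem cells, was at 9.60, 9.64 and 9.43 in FBS and 8.94 and 9.08 in ascites. The groups did not overlap, and the change of -0.55 (SE 0.09, 95% confidence interval -0.80 to -0.29) did not pass the threshold (adjusted p = 0.0545). It passed without FBS replicate 3 (-0.61, adjusted p = 0.0219), with quantile normalization (0.0450), with each array centred on its median (0.0374), without the dimmest 25% of genes (0.0445) and with array weights (0.0118). Under the other 8 alternatives it did not pass, among them the intensity trend (0.0691), the mean of probe sets (0.0870) and the replicate block (0.327). Its second probe set, above the dim range at 6.72 to 6.82, changed by 0.02.

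The other Frizzled receptors did not pass with all arrays. Fzd1 read 4.74, 4.55 and 4.54 in FBS and 4.19 and 4.18 in ascites (change -0.43, adjusted p = 0.0679, and -0.46 with adjusted p = 0.0495 without FBS replicate 3), but all of these values lie in the dim range, as do those of Fzd3 and Fzd8. Fzd5 changed by -0.47 (SE 0.24, adjusted p = 0.334), with FBS replicate 3 at 7.06 against 6.42 on both other FBS arrays. Fzd6, a receptor linked to planar polarity, was 9.52, 9.48 and 9.44 in FBS and 9.43 and 9.53 in ascites. Its change was 0.00 with a 95% confidence interval of -0.16 to 0.16, which excluded a change of the size seen in Fzd2 or Fzd4.

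Neither co-receptor differed detectably. Lrp6 read 10.26, 10.15 and 9.92 in FBS and 9.79 and 10.02 in ascites, and these ranges overlap (change -0.21, 95% confidence interval -0.57 to 0.16, adjusted p = 0.447). Lrp5 was at 6.03, 6.03 and 6.07 in FBS and at 6.03 on both ascites arrays (change -0.01, 95% confidence interval -0.14 to 0.11). Its signal was close to the dim range.

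**Figure D3:**
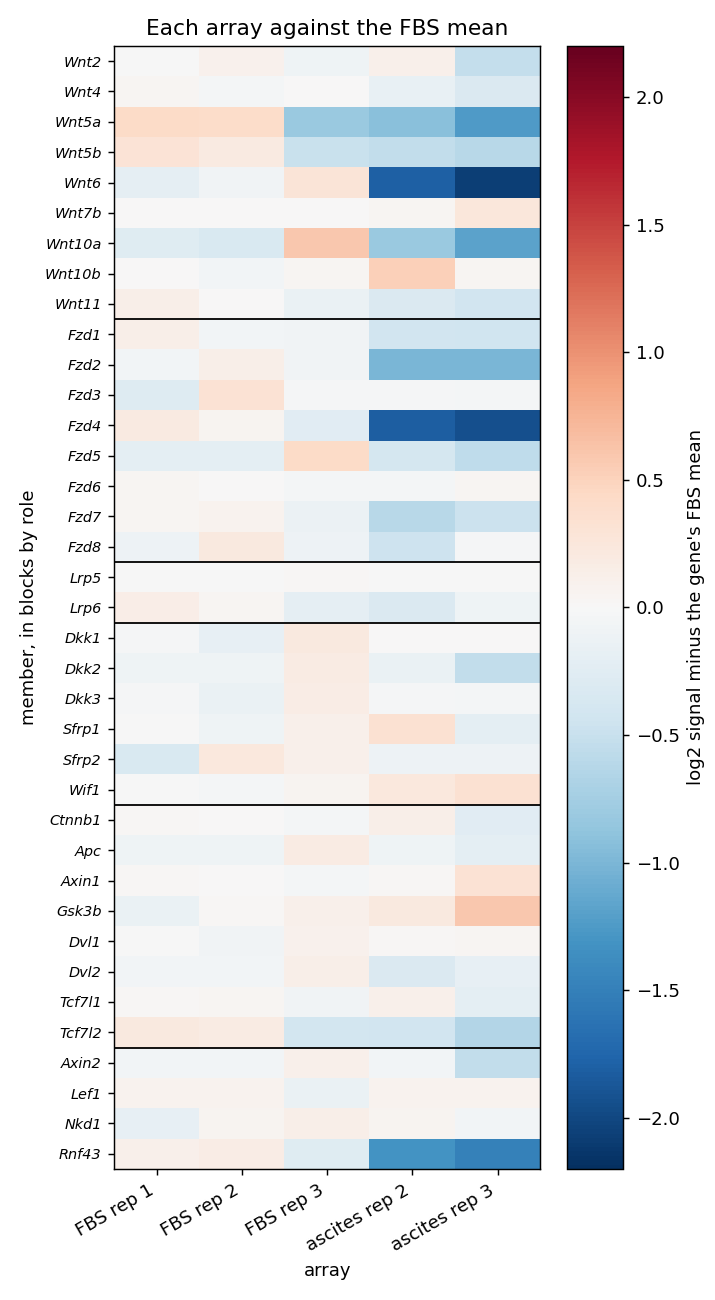
Log2 signal of each member (rows, in blocks by role) on each of the 5 arrays (columns) minus the member's FBS mean, with blue for lower and red for higher. Wnt6, Fzd2, Fzd4 and Rnf43 are blue on both ascites arrays, and FBS replicate 3 stands apart from the other FBS arrays for Wnt5a, Wnt5b, Wnt10a, Fzd5 and Tcf7l2.

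Secreted antagonists bind Wnt ligands (the SFRP proteins and WIF1) or block the LRP co-receptors (DKK1 and DKK2), while DKK3 is a divergent family member. Of the 6 measured, 0 passed with all arrays, 3 were lower and 3 higher, and 5 lay in the dim range in both groups. Their changes ran from -0.35 for Dkk2 to 0.28 for Wif1. Wif1 read 3.18, 3.15 and 3.25 in FBS and 3.42 and 3.52 in ascites (adjusted p = 0.0875), and it passed upward without FBS replicate 3 (0.31, adjusted p = 0.0471). At so low a signal these arrays do not show that the transcript is present. Dkk2, at 3.65, 3.66 and 3.93 in FBS and 3.60 and 3.20 in ascites, did not pass (adjusted p = 0.307).

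Sfrp1, the antagonist above the dim range, read 6.48, 6.39 and 6.59 in FBS and 6.83 and 6.28 in ascites. The ascites arrays lay on either side of the FBS arrays (change 0.07, 95% confidence interval -0.44 to 0.57). Its 3 other probe sets were dim and changed by -0.05 to 0.07. Dkk1, Dkk3 and Sfrp2 changed by 0.00, -0.04 and -0.11.

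The mediators carry the signal from receptor to nucleus, and 0 of the 8 passed with all arrays. Ctnnb1, which encodes beta-catenin, read 13.40, 13.37 and 13.33 in FBS and 13.49 and 13.12 in ascites. The ascites arrays again lay on either side of the FBS arrays (change -0.06, SE 0.13, 95% confidence interval -0.40 to 0.28, adjusted p = 0.804). Its 2 dimmer probe sets changed by 0.27 and 0.43. The arrays measure transcripts and not the stability or location of the beta-catenin protein, through which the pathway mainly acts.

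The destruction complex genes also stayed within a 2-fold change. Apc, the scaffold lost in many colorectal cancers, changed by -0.15 (95% confidence interval -0.44 to 0.15) and Axin1, the other scaffold, by 0.18 (-0.10 to 0.45). Gsk3b, a kinase that marks beta-catenin, was at 8.73, 8.89 and 8.99 in FBS and 9.08 and 9.47 in ascites. The groups did not overlap for Gsk3b, but the change of 0.41 (SE 0.15, adjusted p = 0.212) did not pass. A dimmer Apc probe set changed by 0.24 and a dimmer Axin1 probe set by 0.24.

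The Dishevelled genes, which relay the signal from Frizzled receptors, differed little. Dvl2 was 8.35, 8.35 and 8.54 in FBS and 8.09 and 8.23 in ascites (change -0.25, SE 0.09, adjusted p = 0.201), and Dvl1 changed by 0.03 (95% confidence interval -0.16 to 0.22). Tcf7l2, a DNA-binding partner of beta-catenin, read 8.72 and 8.68 in FBS replicates 1 and 2, 8.10 in FBS replicate 3, and 8.08 and 7.85 in ascites. As with Wnt5a and Wnt5b, FBS replicate 3 lay next to the ascites arrays. The change was -0.54 (adjusted p = 0.264) with all arrays and -0.74 (adjusted p = 0.0301) without FBS replicate 3, and its 3 other probe sets changed by -0.43, -0.27 and -0.05. Tcf7l1, a related factor that mostly represses, changed by -0.05.

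Rnf43, a feedback target whose product removes Frizzled receptors from the cell surface, read 5.77, 5.82 and 5.40 in FBS and 4.34 and 4.17 in ascites. The groups did not overlap, and it fell by 1.41 on the log2 scale (SE 0.16, 95% confidence interval -1.84 to -0.98, adjusted p = 0.0283). All 5 values lay in the dim range, so its presence above background was not shown and a fold is left out. A single probe set represents it.

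The other feedback targets did not pass. Axin2, a widely used readout of beta-catenin activity, read 7.30, 7.30 and 7.46 in FBS and 7.30 and 6.81 in ascites. The values overlap, since ascites replicate 2 equals FBS replicates 1 and 2 and ascites replicate 3 alone is lower (change -0.30, SE 0.17, 95% confidence interval -0.75 to 0.16, adjusted p = 0.386). Without ascites replicate 3 the change was -0.05, and without ascites replicate 2 it was -0.54. Lef1 and Nkd1 were dim, with changes of 0.07 and -0.01, and Lef1 had the same value, 3.77, on 4 of the 5 arrays.

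**Figure D4:**
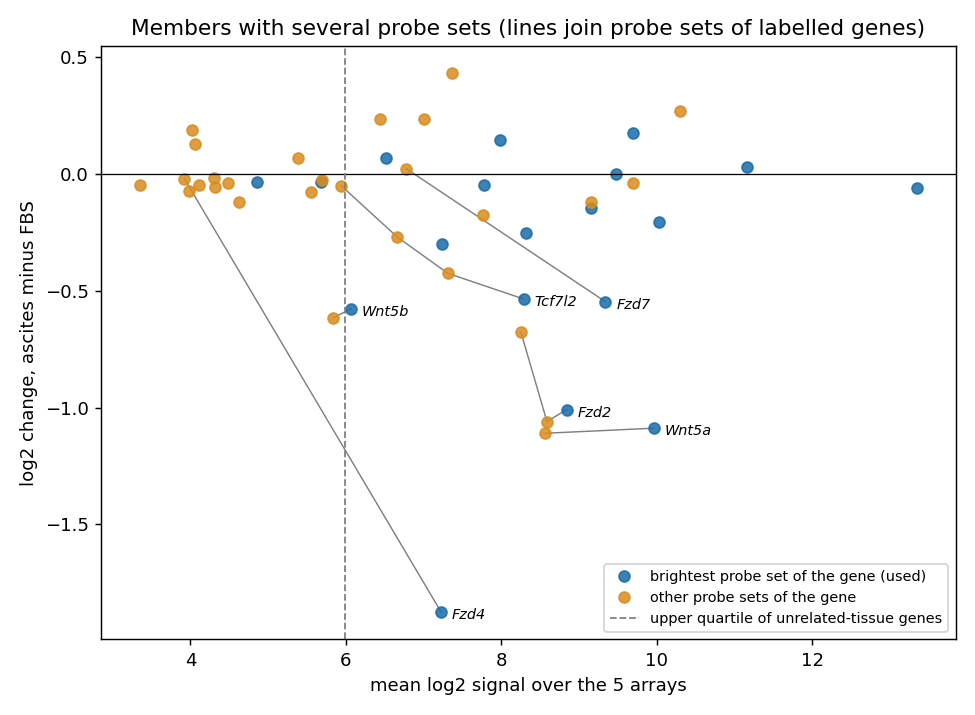
Mean log2 signal over the 5 arrays (x axis) and log2 change between ascites and FBS (y axis) of each probe set of the 19 members with several, with the brightest, which was used, in blue and the others in orange. Lines join the probe sets of 6 labelled genes, and the dashed line marks 5.98, the upper quartile of the unrelated-tissue genes. Fzd2, Wnt5a and Wnt5b have probe sets with similar changes, and the second probe set of Fzd4 is dim. That of Fzd7 is not dim and changed by 0.02, against -0.55 for the one used.

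Agreement between probe sets was mixed over the members. In all, 19 members had more than 1 probe set and 18 had a single one. Of the 28 probe sets that were not used, 15 were dim, and 8 of the other 13 changed in the same direction as the probe set used for the gene. The 4 members that fell thus comprise Fzd2 with 3 probe sets in accord, Fzd4 with a dim second probe set, and Wnt6 and Rnf43 with none to compare.

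Leaving out FBS replicate 3 enlarged the list. The 10 members that then passed downward were Wnt5a, Wnt5b, Wnt6, Wnt11, Fzd1, Fzd2, Fzd4, Fzd7, Tcf7l2 and Rnf43 (27.0% of the members, where 10.9% of all genes did), and Wif1 passed upward (where 9.17% of all genes did). FBS replicates 1 and 2, which then make up the FBS group, were nearly alike, so these p values may be too small. Of the 9 members whose ascites mean differed by at least 0.5 from the mean of FBS replicates 1 and 2, FBS replicate 3 was nearer to ascites for 3 (Wnt5a, Wnt5b and Tcf7l2), and the share was 41.7% over the 2456 genes with such a difference. For Wnt6 and Wnt10a, by contrast, FBS replicate 3 lay further from ascites than the other FBS arrays did.

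Beyond the members, 83 other genes of the pathway were listed from textbook knowledge, of which 70 were measured. Of these 2 fell and 1 rose, where 2.59% and 2.69% of all genes did, and their median change was 0.00. At an unadjusted p below 0.05, 6 were lower and 10 higher, where 12.5% and 11.7% of all genes were. Ccnd1, which encodes cyclin D1 and is among the classic beta-catenin targets, read 11.28, 11.35 and 11.41 in FBS and 12.47 and 12.57 in ascites. It was 2.26-fold higher in ascites (log2 change 1.17, SE 0.07, adjusted p = 0.0158), and its other probe sets changed by 1.38 and 1.33. Many other signals also act on Ccnd1.

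Vangl1, a membrane protein of the planar polarity branch, read 9.74, 9.76 and 9.75 in FBS and 9.15 and 9.12 in ascites. Its ascites level was 1.53-fold lower, a log2 change of -0.62 (SE 0.05, adjusted p = 0.0177). Tle2, a co-repressor that binds TCF and LEF factors, read 7.01, 6.75 and 6.59 in FBS and 5.65 and 5.25 in ascites, the latter in the dim range (log2 change -1.33, SE 0.19, adjusted p = 0.0403). Its relatives Tle1 and Tle3 had changes of 0.74 and 0.44, which did not pass (adjusted p = 0.0653 and 0.0548).

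Without FBS replicate 3, 10 of these genes passed downward and 8 upward, where 10.9% and 9.17% of all genes did. Those that passed upward were Ccnd1, Tle1, Tle3, Porcn and the genes Fosl1 (3.35, adjusted p = 0.0130), Apcdd1 (1.55, adjusted p = 0.0119), Myc (1.48, adjusted p = 0.0309) and Cd44 (1.16, adjusted p = 0.00871), of which Fosl1, Myc and Cd44 are also targets of many other signals. With all arrays Ccnd1 alone of these 8 passed. The downward genes were Vangl1, Tle2, Ptk7, Ctnnbip1, Bcl9, Bcl9l, Jun, Lgr5, Rspo1 and Sfrp4. Jun, also a listed beta-catenin target, changed by -0.87 (adjusted p = 0.0241). Lgr5 changed by -1.34 (adjusted p = 0.0441), and by -2.17 with all arrays (adjusted p = 0.253), where FBS replicate 3 was the highest at 9.14. Rspo1, which encodes an agonist that protects Frizzled receptors from RNF43, read 6.67 and 6.54 in FBS replicates 1 and 2, 4.51 in FBS replicate 3, and 4.19 and 4.12 in ascites. Its group means of 5.91 and 4.16 lay in the dim range, and it did not pass with all arrays (adjusted p = 0.262). Sfrp4, a secreted antagonist, read 11.11, 11.19 and 9.73 in FBS and 9.27 and 8.79 in ascites (change -1.65, adjusted p = 0.163, and -2.12 with adjusted p = 0.0172 without FBS replicate 3). For Rspo1, Sfrp4, Ptk7, Ctnnbip1, Bcl9 and Jun, FBS replicate 3 was nearer to the ascites arrays than to the other FBS arrays. The same held for Fosl1, Apcdd1 and Cd44, and not for the other genes that passed without it. FBS replicate 3 exceeded the mean of the other FBS arrays by 2.22 for Fosl1, 1.30 for Apcdd1 and 1.09 for Cd44, against 0.46 for Myc. Porcn, the enzyme that attaches the lipid to Wnt proteins, changed by 0.57 and Wls, the carrier that takes them to the cell surface, by -0.49, and neither passed with all arrays (adjusted p = 0.151 and 0.215), while Porcn passed without FBS replicate 3 (0.42, adjusted p = 0.0352). The 10 other ligands of the list changed by -0.08 to 0.17, and 9 of them were dim in both groups.

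Markers of the ovarian surface and mesothelium were lower in ascites along with the members that fell. Of the 10 measured, 8 were lower, where 49.5% of all genes were, and 2 (Krt18 and Krt19) fell, where 2.59% of all genes did. The largest decreases, in Bnc1 (-3.19) and Upk3b (-2.30), did not pass (adjusted p = 0.0605 and 0.160). The summed signal of the 10 was 15.34 to 16.17 in FBS and 14.54 to 14.81 in ascites on the log2 scale. Wt1 read 10.83 to 11.17 in ascites, whereas Krt7 read 5.37 and 5.12, in the dim range, and Msln was higher in ascites by 0.37 and did not pass (adjusted p = 0.623). Fibroblast markers summed to 12.87 to 14.36 in FBS and 12.67 to 13.13 in ascites. Macrophage markers summed to 9.24 to 9.42 in FBS and 9.33 to 9.54 in ascites, and for both lists the groups overlap. The part of such shifts in the Wnt results was not tested, and in these bulk samples fewer cells of a type and less RNA per cell cannot be told apart.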

How the data were processed

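The submitters' processing notes name Affymetrix Expression Console, with version and algorithm not given in the sources used here. Values deposited by the authors were taken as log2 signals from their range, with array medians of 7.40 to 7.47, and were not normalized further. They carry no detection call, so presence above background is not known. The number of arrays limits the precision. Of 22690 probe sets, 20393 were annotated to 1 gene, 691 to several and 1555 to none, and 64 were controls. Of those with 1 gene, 20364 matched RefSeq (GRCm38.p6) by Entrez identifier, with 0 symbols changed. Ascites and FBS were compared over all 12394 genes in R 4.3.3 with limma 3.58.1 (a two-sided test from lmFit and eBayes without covariates, 3 residual and 1.33 prior degrees of freedom), at a Benjamini-Hochberg adjusted p of 0.05. The fit was tested on simulated data in which every array had the same spread. That test did not cover an array as far apart as FBS replicate 3. Members and lists were chosen with earlier results of these data known. Members were given array by array if they passed with all arrays or without FBS replicate 3, were among the 2 smallest p values of their role, or had groups that did not overlap and a log2 change of at least 1; others described in this way were chosen after their values were seen. Of the other pathway genes, those that passed were named by rule, and the rest after their values were seen. Alternatives left out each array, used the replicate number as a block, quantile normalization, median centring, a filter on dim genes, the mean of probe sets, array weights, an intensity trend, and FBS replicates 1 and 2 as 1 sample. Deviations of same-numbered arrays from their group means correlated at 0.03 and 0.04. With 2 ascites arrays, the deviation of one mirrors that of the other, and FBS replicate 3 dominates the FBS deviations. These correlations therefore cannot decide whether the numbers pair the arrays. The main fit assumed no pairing.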

Additional observations from a re-analysis of the deposited data

How the results depend on the processing

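The 4 falls among the members kept their direction under each alternative that gave a value, but not their side of the threshold, and the number of calls over all genes changed too. Leaving out 1 array gave 0 to 10 members lower and 0 to 1 higher, 0 to 1357 genes lower and 0 to 1137 higher among all genes, and 0 to 10 other pathway genes lower and 0 to 8 higher. The highest of each range came without FBS replicate 3, and every count was 0 without any other array. Where 1 ascites array was left, it was assumed to vary like the FBS arrays. With the replicate number as a block, and with FBS replicates 1 and 2 averaged as 1 sample, 0 members, 0 of all genes and 0 other pathway genes passed in either direction, while at an unadjusted p below 0.05 there were 974 lower and 918 higher genes under the block and 1093 and 1035 with the averaged arrays. The block and the averaging left fewer degrees of freedom, as did leaving out 1 array. FBS replicate 1 is alone in its block, so the changes under the block equal those without FBS replicate 1 (for Wnt6, -2.03 in both). With array weights 9 members were lower and 1 higher, 1371 genes were lower and 1241 higher, and 9 other pathway genes were lower and 8 higher. Centring gave 490 genes lower and 3 other pathway genes higher, against 2 higher with quantile normalization, 2 with the mean of probe sets and 4 without the dimmest 25% of genes; the cause was not tested. The intensity trend left each count within 1.5 times its value.

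A role's median was compared with the SD, over the 3 FBS arrays, of the median deviation of its members from their FBS means, which was as small as 0.00577 for ligands, and it moved by more than this SD under the following settings. Leaving out 1 array gave -0.52 to -0.30 for ligands, -0.48 to -0.38 for Frizzled receptors and -0.31 to 0.00 for feedback targets. For mediators it gave -0.195 to 0.025, so their sign is not settled. The median of the antagonists stayed within its SD, but its sign is not settled either (-0.08 to 0.0775 without 1 array). Under the replicate block the medians were -0.30 for ligands, -0.21 for feedback targets and -0.04 for mediators. Array weights gave -0.42 for ligands, -0.37 for Frizzled receptors and -0.072 for mediators. Averaging FBS replicates 1 and 2 gave -0.33 for ligands and -0.04 for mediators. Quantile normalization and centring each gave -0.36 for ligands. Without the dimmest genes the medians were -0.55 for Frizzled receptors and -0.30 for feedback targets, of which 1 remained, and with the mean of probe sets they were -0.34 for Frizzled receptors, -0.090 for feedback targets and 0.034 for mediators. Over the 17 members named by rule, 217 changes under alternatives held 0 reversals, 24 calls lost and 16 gained. Signal near that of unrelated-tissue genes limits 11 members in both groups.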
